A study of Rattus norvegicus with 2 samples.

Results

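The transcripts of 6 adrenergic receptor genes were followed through the cell types of the rat orbitofrontal cortex. The genes were Adra1a (ENSRNOG00000009522), Adra1b (ENSRNOG00000060087), Adra1d (ENSRNOG00000021256), Adra2a (ENSRNOG00000047545), Adra2c (ENSRNOG00000009299) and Adrb1 (ENSRNOG00000017002). They were taken by gene symbol, which matched 1 row each among the 25399 genes of the deposited tables. The set was chosen with earlier results of these data known. Male Sprague-Dawley rats, 8 weeks of age, had received METH (methamphetamine, a psychostimulant that releases dopamine and noradrenaline) at 1 mg/kg or saline by the intraperitoneal route for 7 days. The series models sensitization to METH. Tissue of 4 animals per group gave 1 single-nucleus library per group, and the sources used here do not say how tissue of the animals was joined, so nothing in the values separates them. With 1 library per group no test was possible, so every difference below describes these 2 libraries, and the 95% intervals cover counting error only. A level is given as CPM, the unique molecular identifiers (UMIs) of a gene for each 1000000 UMIs of all nuclei of a cell group in a library.

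Adrenergic receptors are the receptors for noradrenaline, which reaches the cortex from fibres of the locus coeruleus. The alpha-1 receptors (Adra1a, Adra1b, Adra1d) couple to Gq proteins and phospholipase C, the alpha-2 receptors (Adra2a, Adra2c) couple to Gi proteins and lower cyclic AMP, and the beta-1 receptor (Adrb1) couples to Gs proteins and raises it. In the prefrontal cortex, alpha-1 receptors are known from neurons and astrocytes, and Adra2a from pyramidal neurons and from the noradrenergic fibres themselves.

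The METH library held 44969322 UMIs in 5543 barcodes and the saline library 42221257 in 6969. After filtering, 5159 and 6509 nuclei were analysed, with medians of 6216 and 4867 UMIs. The libraries shared 9 barcodes. Excitatory neurons made up 41.8% (METH) and 53.8% (saline) of nuclei, and inhibitory neurons 25.0% and 18.8%, so levels were compared within cell groups. Clusters were named from marker genes, without use of the adrenergic receptors, as X-like groups written here without that suffix. A total of 17 groups had at least 50 nuclei in each library. They were 5 excitatory subclasses, 2 excitatory clusters called here by their leading genes Hgf and Pld5, 5 inhibitory subclasses and 5 non-neuronal classes.

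Before filters for mitochondrial UMIs and doublets, the receptors differed widely in the number of UMIs behind their values. Adra1a had 6998 UMIs in METH and 5867 in saline, Adra1b 2731 and 2623, and Adra1d 819 and 978. Adra2a had 57 and 72, Adra2c 16 and 20, and Adrb1 23 and 30. All 53 UMIs of Adrb1 lay in different nuclei, and 123 of the 126 nuclei with Adra2a held 1 UMI of it. The 3 alpha-1 genes could therefore be described by subclass, and the other 3 mainly by their counts. The alpha-2 and beta-1 genes are known to lack introns, and the sources used here do not say whether intronic reads were counted. These totals were not read as an order of expression between genes.

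Adra1a was highest in the Lamp5 interneurons, a group that contains the neurogliaform cells. Its level there was 743 CPM in METH (683 to 807) and 657 CPM in saline (595 to 724). The intervals lay above those of all 16 other groups in both libraries. Sncg interneurons, which include the cholecystokinin basket cells, were second at 369 and 332 CPM, and Lamp5 nuclei exceeded them 2.01-fold in METH (1.75 to 2.31) and 1.98-fold in saline (1.62 to 2.42). Pvalb interneurons, the fast-spiking cells, followed at 257 and 300 CPM, Vip interneurons at 219 and 251, and Sst interneurons at 233 and 236. The neighbours from Sncg down to astrocytes in this order were not separated by their intervals in both libraries.

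Among excitatory neurons Adra1a was highest in the types that project to subcortical targets. The layer 6 corticothalamic (L6 CT) neurons had 249 and 211 CPM, and the layer 5 extratelencephalic (L5 ET) neurons 186 and 247. The layer 2/3 intratelencephalic (L2/3 IT) neurons had 87.4 and 97.0 CPM. L6 CT thus exceeded L2/3 IT 2.85-fold in METH (2.54 to 3.19) and 2.18-fold in saline (1.93 to 2.45), and L5 ET exceeded it 2.12-fold (1.88 to 2.39) and 2.55-fold (2.28 to 2.86). The Hgf cluster had 119 and 116 CPM. The layer 5/6 near-projecting (L5/6 NP) neurons had 60.4 and 91.8 CPM, the layer 5/6 intratelencephalic (L5/6 IT) neurons 46.4 and 56.3, and the Pld5 cluster 50.9 and 43.7. Over whole classes, inhibitory neurons were at 294 and 302 CPM and excitatory neurons at 108 and 111, a 2.72-fold difference in METH (2.57 to 2.88) and a 2.74-fold one in saline (2.58 to 2.91).

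**Figure D1:**
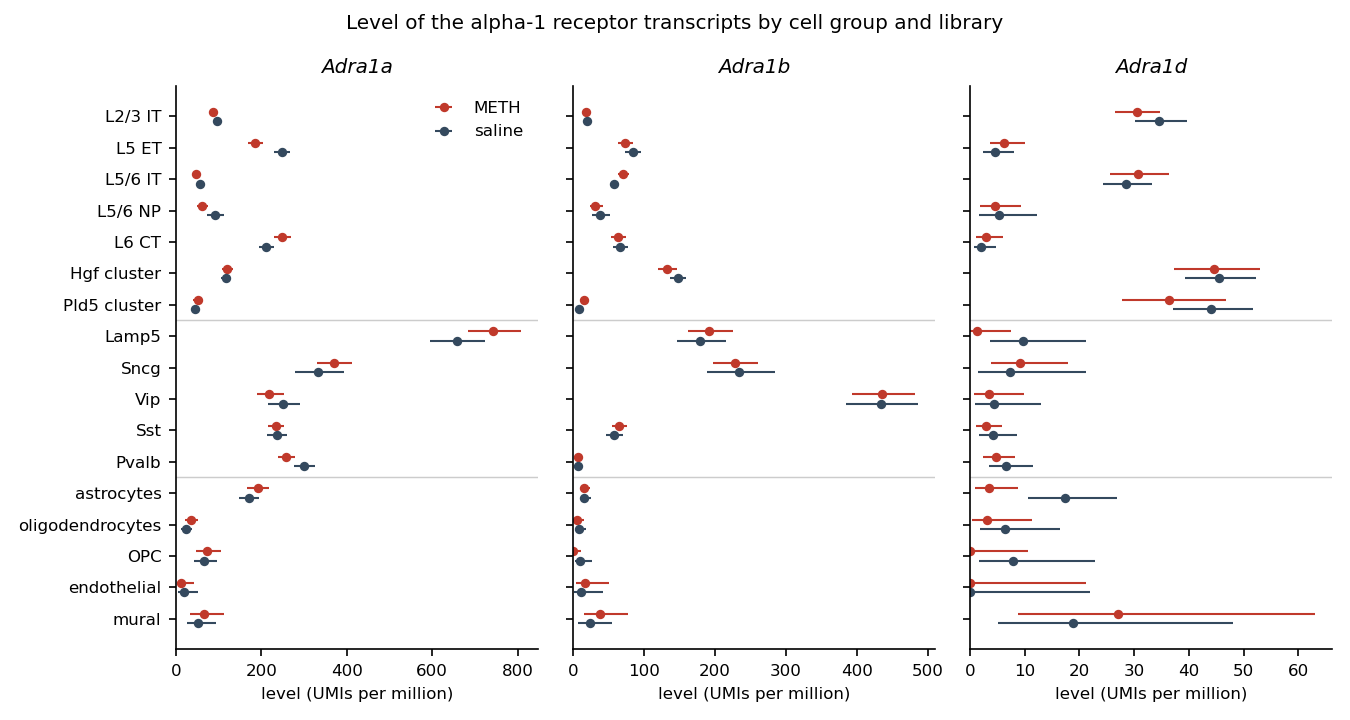
Level of Adra1a, Adra1b and Adra1d in CPM (x axis, linear, a scale of its own for each gene) in the 17 cell groups (y axis), for the METH (red) and saline (dark) libraries. Points are class sums and bars exact Poisson 95% intervals; Lamp5 nuclei lead for Adra1a, Vip nuclei for Adra1b, and the Hgf and Pld5 clusters, L2/3 IT and L5/6 IT for Adra1d.

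Adra1a also varied inside the named subclasses. The L5/6 IT neurons joined 2 clusters. The cluster led by Il1rapl2 was at 20.9 CPM in METH (15.7 to 27.3) and 38.2 in saline (31.8 to 45.6), and the cluster led by Eya1 and Tll2 was at 85.2 (71.9 to 100) and 78.8 (68.3 to 90.4). Small inhibitory groups below the minimum of 50 nuclei spanned a wide range. An unnamed cluster led by Cpne4 and Ntng1 (44 and 33 nuclei) was at 554 and 503 CPM. The Npsr1-led cluster of the Sst neurons, which had Nos1 among its leading genes, was at 578 and 379 CPM in 13 and 8 nuclei. In chandelier cells, which contact the axon initial segment, 3 UMIs in 25 METH nuclei gave 19.1 CPM (3.94 to 55.8), and 9 UMIs in 17 saline nuclei gave 89.9 (41.1 to 171).

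Adra1b was highest in the Vip interneurons, which mostly inhibit other interneurons. Vip nuclei had 436 CPM in METH (394 to 482) and 434 CPM in saline (385 to 486), above all 16 other groups in both libraries. Sncg nuclei had 228 and 234 CPM and Lamp5 nuclei 192 and 179. In Pvalb nuclei the level was 7.44 CPM in METH (19 UMIs) and 7.63 in saline (14 UMIs), so that Vip exceeded Pvalb 58.6-fold (37.0 to 98.4) and 56.8-fold (33.3 to 105). These folds depend on the clustering, as given below. The same Pvalb nuclei held 656 and 550 UMIs of Adra1a. For each 100 UMIs of Slc17a7, the excitatory neuron gene used below as a gauge of free RNA, Pvalb nuclei held 35.2 and 19.4 UMIs of Adra1b, against 27.9 and 23.7 over all nuclei, so their Adra1b was not separated from background. Sst nuclei had 64.6 and 57.3 CPM of Adra1b, but unevenly: the Ror1-led cluster with Calb1 was at 20.3 (10.8 to 34.7) and 13.7 (5.02 to 29.8), and the Pappa2-led cluster at 76.8 (62.3 to 93.6) and 67.0 (51.6 to 85.5).

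In excitatory neurons Adra1b was highest in the Hgf cluster, at 132 CPM in METH (119 to 146) and 147 in saline (136 to 159). L5 ET neurons had 73.1 and 84.5 CPM, L5/6 IT neurons 71.0 and 57.7, and L6 CT neurons 63.2 and 66.0, which were not separated from each other in both libraries. L2/3 IT neurons, with 18.0 and 19.9 CPM, and the Pld5 cluster, with 15.2 and 7.94, were lower. Both L5/6 IT clusters had similar Adra1b levels, 74.1 and 61.6 CPM in the Il1rapl2-led cluster and 66.3 and 52.8 in the cluster led by Eya1 and Tll2. Their intervals overlapped in both libraries, unlike those of Adra1a in the same clusters.

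A finer clustering, at resolution 2, divided the Vip neurons, and Adra1b differed between the divisions. A cluster led by Itga8 and Vip, with Crh and Adra1b among its 10 leading genes, had 619 CPM in METH (528 to 722) and 677 in saline (570 to 799) in 62 and 57 nuclei. The cluster led by Chat and Colec12 had 222 (180 to 271) and 217 (171 to 271) in 86 and 94 nuclei. The remaining Vip nuclei lay in a cluster led by Wwtr1 and Rgs12, with Penk and Htr3a among its leading genes, apart from 3 saline nuclei. It had 676 CPM of Adra1b in METH (563 to 806) and 702 in saline (552 to 880) in 36 and 27 nuclei. At resolution 2 this cluster took the Pvalb name, with Pvalb markers at a mean level of 0.438 of the highest cluster and Vip markers at 0.257. The low Adra1b level of Pvalb nuclei and the folds of Vip over Pvalb given above thus describe the groups of the main clustering only. The 2 clusters with high Adra1b differed in Adra1a, which was at 431 and 401 CPM in the Itga8-led cluster and at 32.5 (11.9 to 70.6) and 93.6 (44.9 to 172) in the Wwtr1-led one, from 6 and 10 UMIs. The Chat-led cluster had 169 and 211 CPM of Adra1a. The adrenergic receptors were not among the genes used for this clustering, but other genes of the same nuclei were, so the values are a description.

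Adra1d was highest in 4 excitatory groups. The Hgf cluster was at 44.6 CPM in METH (37.2 to 52.9) and 45.5 in saline (39.3 to 52.4), the Pld5 cluster at 36.4 and 44.0, L2/3 IT neurons at 30.4 and 34.6, and L5/6 IT neurons at 30.7 and 28.5. L5 ET neurons had 6.27 and 4.57 CPM, L5/6 NP neurons 4.50 and 5.28, and L6 CT neurons 2.93 and 2.02. The intervals of these 3 types lay below those of the other 4 in both libraries. Excitatory neurons as a class exceeded inhibitory neurons 6.54-fold in METH (4.61 to 9.60) and 4.37-fold in saline (3.17 to 6.20). L5 ET and L6 CT neurons, which stood high among excitatory neurons for Adra1a, were thus among the lowest for Adra1d.

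Outside the neurons, astrocytes were the class with the highest Adra1a level, 191 CPM in METH (167 to 218) and 170 in saline (147 to 195). This was 5.53-fold the level of mature oligodendrocytes in METH (3.56 to 9.01) and 7.57-fold in saline (4.41 to 14.1). Oligodendrocyte precursors had 25 UMIs in each library (71.5 and 64.9 CPM), mural nuclei 12 and 11 (64.8 and 51.7), mature oligodendrocytes 22 and 14 (34.6 and 22.4), and endothelial nuclei 2 and 3. Fibroblasts had 12 UMIs of Adra1a in 42 METH nuclei and 0 in 17 saline nuclei, where 3 nuclei with a UMI would be a share of 17.6%. Adra1b in astrocytes rested on 18 UMIs in each library. Adra1d reached 27.0 CPM (8.77 to 63.0) and 18.8 CPM (5.12 to 48.1) in mural nuclei, from the contractile cells of small vessels, from 5 and 4 UMIs.

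Free RNA in the droplets bears on the low levels. Slc17a7, the vesicular glutamate transporter of excitatory neurons, gave UMIs in 8.73% of the METH and 13.7% of the saline mature oligodendrocytes (medians of 2045 and 1526 UMIs). The share with an Adra1a UMI there was 4.36% and 2.79%, against 33.1% and 27.4% of astrocytes (medians of 2420 and 2011 UMIs). With each nucleus thinned to 1000 UMIs the Adra1a shares were 14.7% and 14.2% in astrocytes, 8.27% and 4.62% in oligodendrocyte precursors and 2.57% and 0.627% in mature oligodendrocytes. For each 100 UMIs of Slc17a7, excitatory neurons held 33.7 UMIs of Adra1a in METH and 31.9 in saline, endothelial nuclei 13.3 and 15.0, mature oligodendrocytes 78.6 and 26.4, oligodendrocyte precursors 167 and 89.3, and astrocytes 544 and 264. Over all nuclei the ratio was 70.1 and 52.1. The astrocyte ratio was far above the library-wide ratio, the precursor ratio was above it in both libraries from 25 UMIs of Adra1a each, and the endothelial ratio was below it. For Adra1b the astrocyte ratio was 43.9 and 24.3, against 27.9 and 23.7 over all nuclei, so its 18 UMIs per library were not separated from background. Mural nuclei, where Slc17a7 was high (162 and 249 CPM), held 40.0 and 20.8 UMIs of Adra1a and 16.7 and 7.55 of Adra1d for each 100 of Slc17a7. The library-wide ratio of Adra1d was 8.40 and 8.92, so neither gene stood clear of background there in both libraries.

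Adra2a was sparse in every group. Of its 66 UMIs in analysed saline nuclei, 41 lay in excitatory and 18 in inhibitory neurons. In METH the counts were 20 and 14 of 52. Excitatory neurons held 22468431 (METH) and 25492233 (saline) UMIs of all genes, against 8602652 and 5901130 in inhibitory neurons, so these counts do not rank the classes. Thinned to 3000 UMIs, 0.668% and 0.913% of inhibitory nuclei had Adra2a (8 and 9 nuclei), against 0.332% and 0.332% of excitatory nuclei (7 and 11). L2/3 IT neurons had 14 UMIs in METH and 15 in saline (2.00 and 2.46 CPM), Sst neurons 8 and 11 (3.27 and 6.50 CPM), Vip neurons 6 and 3, and the Hgf cluster 3 and 11. L5 ET neurons had 0 in both libraries, where 3 UMIs would be 1.11 and 1.14 CPM. Pvalb neurons had 0 and 1. The Sst interval lay above that of L5 ET neurons in both libraries, and this was the only separated pair among the 17 groups. Astrocytes held 2 and 3 UMIs.

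Adrb1 UMIs lay mostly in excitatory neurons, 15 of 20 in METH and 26 of 28 in saline. Inhibitory neurons held 1 and 0, and nuclei without a class name 4 and 2. Within the excitatory class they were spread over the subclasses, with the most in the Hgf cluster (3 and 8), L5/6 IT neurons (2 and 9) and L2/3 IT neurons (4 and 4). Adra2c had 5 and 14 UMIs in excitatory neurons and 3 and 1 in inhibitory neurons. Astrocytes, mature oligodendrocytes and their precursors held 0 UMIs of either gene in both libraries, where 3 UMIs in astrocytes would be 2.57 CPM in METH and 2.61 in saline. Adra2b, another alpha-2 receptor, had 2 and 2 UMIs before filtering, and Adrb3, the beta-3 receptor, 5 and 0.

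**Figure D2:**
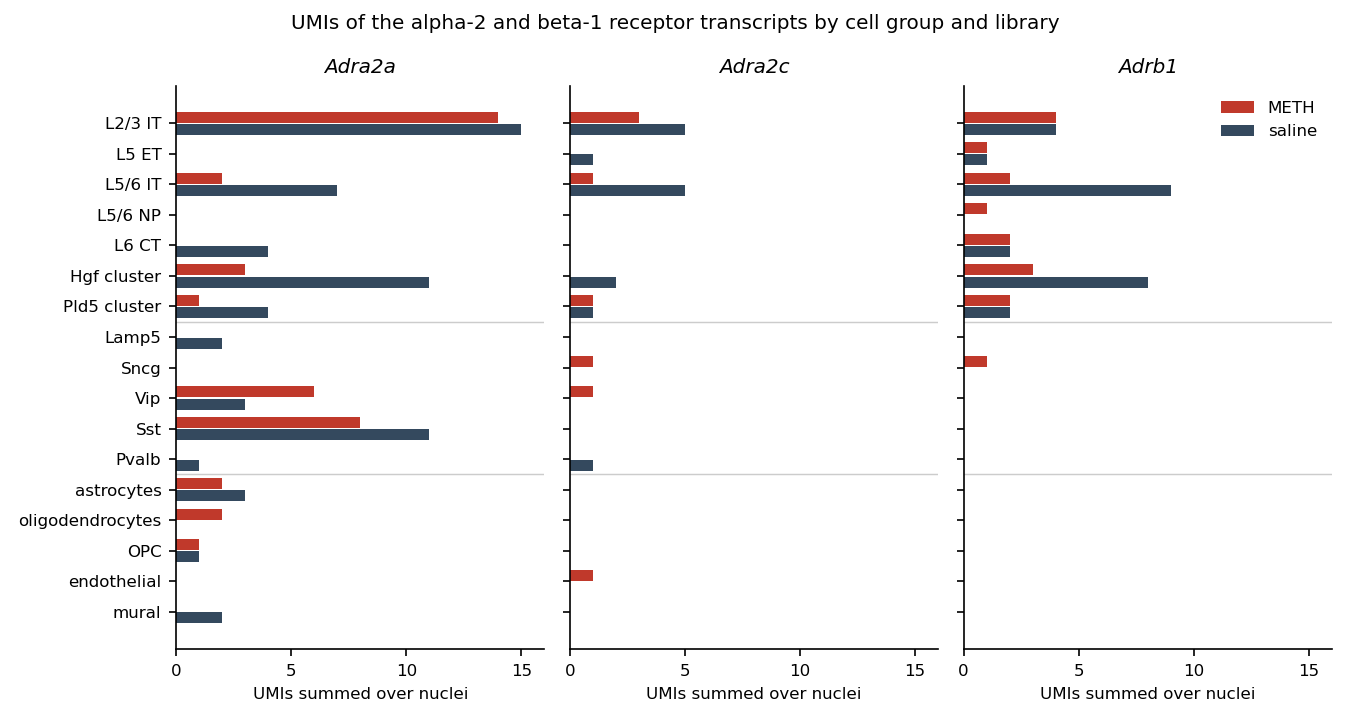
UMIs of Adra2a, Adra2c and Adrb1 summed over nuclei (x axis) in the 17 cell groups (y axis), for the METH (red) and saline (dark) libraries. Adra2a reaches 14 and 15 UMIs in L2/3 IT neurons and 8 and 11 in Sst neurons, and outside the excitatory groups Adrb1 has 1 UMI, in Sncg nuclei.

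Single nuclei often held more than 1 of the receptors. At least 1 UMI of the 6 genes was seen in 66.9% of METH and 60.0% of saline excitatory nuclei, 74.6% and 67.8% of inhibitory nuclei, 35.9% and 32.1% of astrocytes and 6.18% and 5.31% of mature oligodendrocytes. Excitatory nuclei had medians of 9384 and 6408 UMIs and inhibitory nuclei 6104 and 4368, so depth differed between groups and between libraries, and each unthinned share describes a group at its own depth. Nuclei with UMIs of both Adra1a and Adra1b were 57.0% and 46.8% of Sncg nuclei, 48.6% and 45.0% of Lamp5 nuclei, 30.4% and 31.5% of Vip nuclei, and 3.72% and 2.29% of Pvalb nuclei. Pvalb nuclei with Adra1a alone of these were 69.9% and 62.2%. In the Hgf cluster, with medians of 9940 and 6861 UMIs, 40.2% and 28.7% of nuclei had Adra1a with Adra1b, 25.4% and 14.4% Adra1b with Adra1d, and 20.8% and 11.9% Adra1a with Adra1d. All 3 genes were seen together in 15.5% and 7.98% of Hgf nuclei (41 of 264 and 45 of 564), against 4.96% and 1.27% of Sncg nuclei and 4.32% and 2.65% of L5/6 IT nuclei.

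Neurons were also thinned to 3000 UMIs each. The share of Lamp5 nuclei with Adra1a was 88.1% and 82.2% before thinning, and 82.7% and 83.0% after it, with 11 and 23 shallower nuclei left out. The share of Vip nuclei with Adra1b was 69.6% and 57.5% before, and 60.9% and 60.7% after (33 and 74 left out). For Adra1b the thinned shares were 47.3% and 48.5% in Sncg nuclei, 32.7% and 34.0% in Lamp5 nuclei, and 2.05% and 1.67% in Pvalb nuclei. For Adra1a they were 48.6% in METH (42.7 to 54.5) and 39.6% in saline (34.8 to 44.6) in L6 CT nuclei. In L5 ET nuclei they were 38.2% and 44.7%, and in Vip nuclei 38.4% and 45.8%. The intervals of the libraries overlapped in each of these groups.

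**Figure D3:**
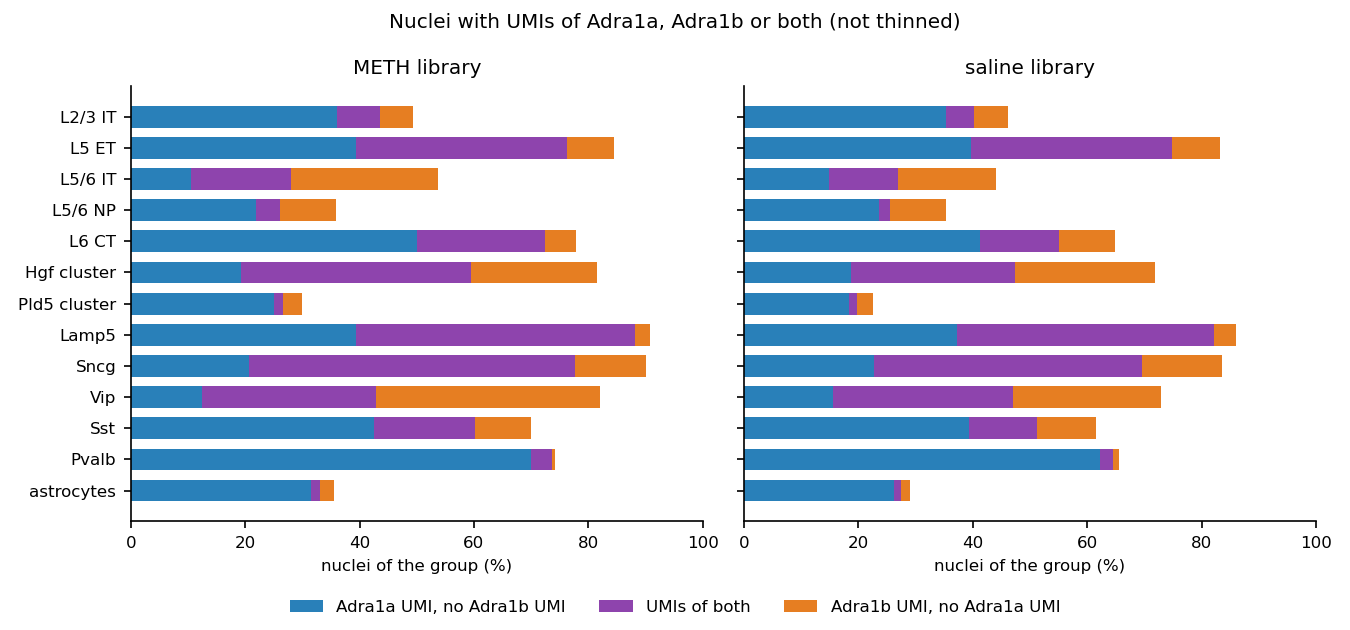
Percent of nuclei (x axis) with an Adra1a UMI and no Adra1b UMI (blue), UMIs of both (purple), or an Adra1b UMI and no Adra1a UMI (orange), by cell group (y axis) and library (panels), not thinned. Pvalb nuclei are almost wholly blue, Vip nuclei have the largest orange part among the inhibitory groups, and Sncg and Lamp5 nuclei have the widest purple bars.

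Genes whose pattern over the 17 groups was most like each receptor were found by Pearson correlation of log2(CPM + 1) over 34 points, 2 libraries by 17 groups, among 10468 genes with at least 500 UMIs. The points of a group share their cell type, and the points of a library share its depth and free RNA. Adra1a was most like Slc25a12, a mitochondrial aspartate-glutamate carrier (r = 0.86), Gpr176, an orphan receptor (r = 0.82), and Slc39a11, a zinc transporter (r = 0.82). Adra1b was most like Fstl5, a follistatin-like protein (r = 0.87), Rgs8, a regulator of G protein signalling (r = 0.82), and Epha3, an ephrin receptor (r = 0.76). Adra1d was most like Fbxl13, an F-box gene (r = 0.85), AABR07027407.1 (r = 0.79) and LOC102547949 (r = 0.78). For these 3 receptors, by Spearman correlation only Gpr176 and AABR07027407.1 stayed among the 3 most alike, with rho of 0.85 and 0.76. The patterns of the sparse receptors rest on few UMIs and gave Arpc5l, Trpc6 and Shisa6 for Adra2a (r = 0.63, 0.60 and 0.59), Alas1, Smg6 and Magi3 for Adra2c (0.61, 0.61 and 0.59), and R3hdm1, Stx1a and Homer1 for Adrb1 (0.78, 0.77 and 0.76).

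The second comparison set METH against saline within each group. A gene was called where METH and saline differed by more than 1.5-fold both in the estimate and at the end of its interval closer to equality. In excitatory neurons 0 of the 4 receptors with at least 50 UMIs were called, where 0.718% of all 13228 genes with at least 50 UMIs were. The class sums of Adra1a, 108 and 111 CPM, had a log2 ratio of -0.03 (-0.11 to 0.05). Adra1b was at 55.0 and 60.2 CPM (-0.13, -0.24 to -0.02) and Adra1d at 25.1 and 28.9 (-0.20, -0.36 to -0.04). For the class sums, and for counting error only, the intervals of Adra1b and Adra1d lay between equality and a difference of less than 1.5-fold. The Adra1b ratio left its interval with nuclei thinned to 1000 UMIs, as given below. The sums mix subclasses in unlike shares. The Pld5 cluster, for example, gave 184 of 2154 METH and 518 of 3503 saline excitatory nuclei. Class ratios therefore do not separate this mix from levels within subclasses. Adra2a was at 0.890 and 1.61 CPM from 20 and 41 UMIs, a log2 ratio of -0.85 (-1.70 to -0.05). This value passed a looser rule, a ratio past 1.5-fold with an interval that leaves out 0, as did 4.22% of all genes in this class. With nuclei thinned to 3000 UMIs the share with Adra2a was 0.332% in METH (7 of 2111 nuclei) and 0.332% in saline (11 of 3314), and thinned to 1000 UMIs 1 and 8 nuclei held it.

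In inhibitory neurons 0 of 3 measured receptors were called, against 0.399% of 11265 genes. Adra1a was at 294 and 302 CPM (log2 -0.04, -0.13 to 0.05) and Adra1b at 112 and 112 (0.00, -0.14 to 0.15). Adra1d, with 33 and 39 UMIs, was at 3.84 and 6.61 CPM (-0.78, -1.50 to -0.08), and passed the looser rule, as did 3.6% of all genes there. Slc17a7 moved with it in the same nuclei, at 20.7 CPM in METH and 38.1 in saline, and its part in the Adra1d ratio was not tested. In astrocytes Adra1a was the 1 receptor with at least 50 UMIs and was not called, against 0.783% of 7023 genes, at a log2 ratio of 0.17 (-0.11 to 0.46). Adra1d had 4 UMIs in METH astrocytes and 20 in saline ones, 3.43 and 17.4 CPM. With a minimum of 20 UMIs it was called at a log2 ratio of -2.35 (-4.35 to -0.77), against 0.724% of 9671 genes at that minimum. Slc17a7 in astrocytes was at 35.2 and 64.5 CPM, and its part was again not tested.

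Across the 17 groups, 29 of 102 pairs of a receptor and a group had at least 50 UMIs, and 0 of the 29 were called. Of all 115647 measured pairs of a gene and a group, 0.331% were. The log2 ratios of the 29 pairs ran from -0.60 to 0.93 with a median of -0.03, against -0.02 over all measured pairs, and 13 lay above 0 and 16 below. In 22 pairs the interval held 0. The share of all measured pairs whose interval left out 0 is not given here, so this count does not set the receptors apart from other genes. The looser rule called 2 of the 29, against 4.67% of all pairs. With a minimum of 20 UMIs, 1 of 37 pairs was called, Adra1d in astrocytes, against 0.421% of all pairs.

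Both of these were small in count. Adra1a in L5/6 NP neurons had 94 UMIs in METH and 87 in saline, 60.4 and 91.8 CPM (log2 -0.60, -1.04 to -0.17). Adra1b in the Pld5 cluster had 25 and 26 UMIs, 15.2 and 7.94 CPM (0.93, 0.08 to 1.78), and its METH UMIs came from 9 nuclei, at most 5 from 1 of them, against 22 nuclei in saline. With at least 1000 genes per nucleus the Pld5 value was 0.07, and with nuclei matched on UMIs it was -0.51. In 5 more pairs the interval left out 0 at a smaller ratio. For Adra1a they were L5 ET neurons (503 and 650 UMIs, log2 -0.41, -0.59 to -0.24), L5/6 IT neurons (198 and 326, -0.28), Pvalb neurons (656 and 550, -0.22) and, in the other direction, L6 CT neurons (595 and 522, 0.24, 0.06 to 0.41). For Adra1b it was L5/6 IT neurons (303 and 334 UMIs, 0.30). With every nucleus weighted alike the L5 ET value was -0.24. With the receptors among the clustering genes, a cluster led by Il1rapl2 (184 and 357 nuclei) did not get the L5/6 IT name. The Adra1a value of L5/6 IT neurons was then 0.02, from a cluster led by Eya1 and Tll2 (130 and 310 nuclei). With at least 200 genes per nucleus, where both clusters had the name, the value was -0.09.

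**Figure D4:**
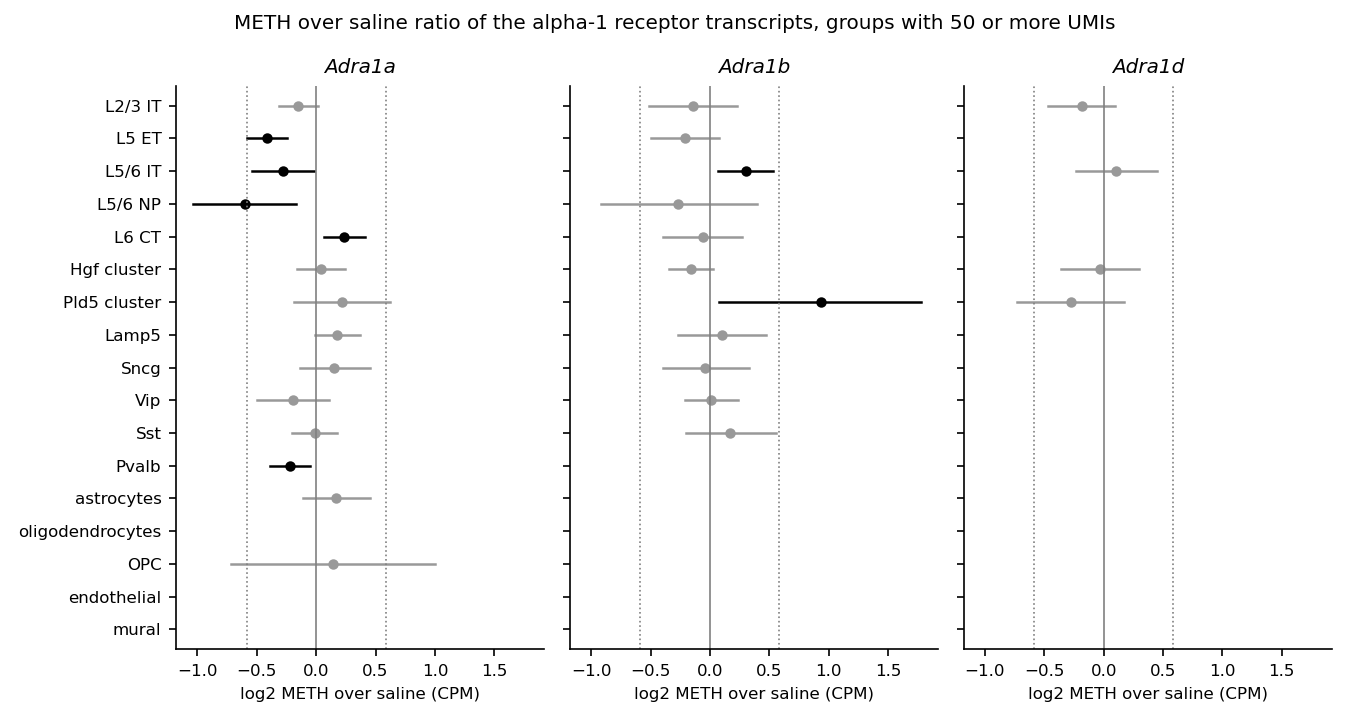
Log2 ratio of METH over saline CPM (x axis) for Adra1a, Adra1b and Adra1d in each group with at least 50 UMIs (y axis). Points are ratios, bars exact conditional 95% intervals for counting error, black where the interval leaves out 0, and dotted lines mark 1.5-fold; none of the 29 intervals lies wholly past a dotted line.

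The Lamp5 and Vip groups, where Adra1a and Adra1b were highest, differed little between the libraries. Adra1a in Lamp5 neurons had 558 and 404 UMIs and a log2 ratio of 0.18 (-0.01 to 0.37). Adra1b in Vip neurons had 385 and 294 UMIs and a log2 ratio of 0.01 (-0.21 to 0.23). Adra1d in the Hgf cluster had 129 and 195 UMIs and a log2 ratio of -0.03 (-0.36 to 0.30). At these depths a 1.5-fold difference lay outside each interval.

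Within subclasses, the Adra1a ratios of clusters differed. In L5/6 IT neurons the Il1rapl2-led cluster had 54 and 123 UMIs (log2 -0.87, -1.36 to -0.40) and the cluster led by Eya1 and Tll2 had 144 and 203 (0.11, -0.21 to 0.43). In Sst neurons the Ror1-led cluster had 216 and 105 UMIs, 337 and 239 CPM (0.49, 0.15 to 0.84), and the Pappa2-led cluster 213 and 218, 167 and 228 CPM (-0.45, -0.73 to -0.17), so that the subclass as a whole, at 233 and 236 CPM, hid unlike values. None of these passed the rule for a call, and the difference between clusters was not tested.

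Of the genes of noradrenaline signalling, 59 were in the tables, and none of the 49 measured in excitatory neurons or the 44 in inhibitory neurons was called. Of all measured genes, 0.718% of 13228 were called in excitatory and 0.399% of 11265 in inhibitory neurons. With shares this low, the absence of calls does not set the lists apart. In excitatory neurons the median log2 ratio was 0.03 over 10 G protein alpha subunits, 0.01 over 23 effectors, -0.06 over 10 kinases, arrestins and regulators of G protein signalling, and -0.17 over 6 genes of noradrenaline synthesis, uptake and breakdown, against -0.02 over all measured genes. The 2 values farthest from 0 were, by list, Gnas (-0.50) and Gna14 (-0.42), Itpr2 (-0.31) and Adcy8 (-0.30), Grk2 (-0.50) and Rgs4 (-0.44), and Ddc (-0.61) and Maob (-0.27). Gnas encodes the Gs protein of the beta receptors, and Gna14 a Gq family protein, with 1140 UMIs in METH and 1730 in saline.

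In inhibitory neurons the list medians were -0.04, -0.01, 0.00 and -0.18 in the same order, against -0.02 over all genes. Gna14 had 841 and 422 UMIs there, 97.8 and 71.5 CPM (log2 0.45, 0.28 to 0.62), and in excitatory neurons 50.7 and 67.9 CPM (-0.42, -0.53 to -0.31). Rgs4, a GTPase activator that shortens Gq and Gi signals, had 58 and 68 UMIs in inhibitory neurons (-0.77, -1.30 to -0.25) and passed the looser rule. The other genes farthest from 0 were Gnai2 (0.23), Adcy7 (0.33), Itpr2 (-0.30), Grk3 (0.34), Th (-0.46) and Maoa (-0.29). Dbh, which makes noradrenaline, had 2 and 3 UMIs in excitatory neurons and 0 in inhibitory ones, and Slc6a2, the noradrenaline transporter, 1 and 1, and 1 and 0.

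In astrocytes 1 of the 31 measured genes was called, lower in METH, against 0.783% of all genes, and 4 passed the looser rule, 1 higher and 3 lower, against 7.25%. The list medians were 0.05 over 5 G protein alpha subunits, -0.28 over 18 effectors, -0.18 over 5 regulators of signalling and 0.12 over 3 genes of noradrenaline synthesis, uptake and breakdown, against -0.08 over all genes. Slc17a7 was also lower in METH in these nuclei, as given above, and its part in these values was not tested. Of the effectors, Adcy8 (43 and 18 UMIs, 1.23), Adcy5 (20 and 45, -1.19) and Prkcb (49 and 87, -0.85), named after their values were seen, passed the looser rule. The values farthest from 0 were Gnao1 (0.16) and Gnaq (0.09) among G protein alpha subunits, and Grk6 (-0.53) and Rgs7 (-0.29) among regulators.

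**Figure D5:**
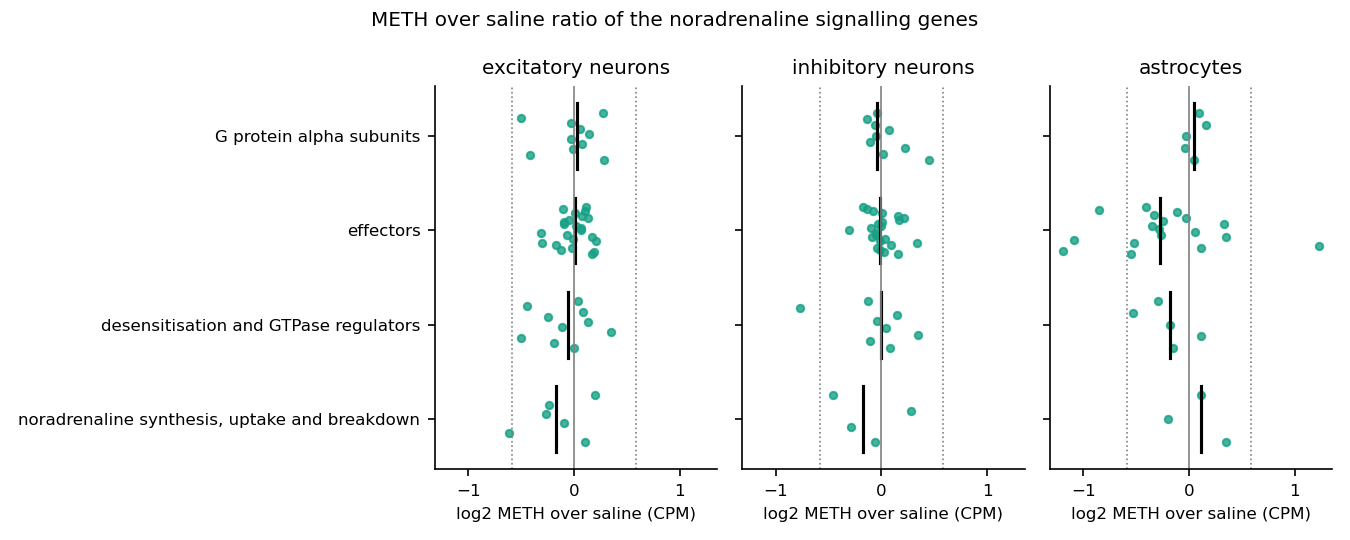
Log2 ratio of METH over saline CPM (x axis) of the measured genes of 4 lists of noradrenaline signalling genes (y axis) in excitatory neurons, inhibitory neurons and astrocytes (panels). Points are genes, spread vertically for legibility, short black lines are list medians and dotted lines mark 1.5-fold; the points of both neuron classes lie mostly between the dotted lines, and those of the effectors in astrocytes spread wider.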

How the data were processed

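Per the labels, nuclear RNA of rat orbitofrontal cortex was made into droplet 3' libraries (Chromium v3.1). The values are raw UMI counts of each gene in each barcode, deposited by the authors and made with Cell Ranger 7.0.0 per the submitters' processing notes. Those notes name hg38, a human build, while the gene identifiers are rat Ensembl ones; the sources used here do not name the rat build, so no coordinates are printed. Gene symbols come from the deposited gene tables.

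Kept barcodes had 500 or more genes and no more than 5% mitochondrial UMIs, and doublets found with Scrublet in scanpy 1.11.5 were removed (328 in METH, 5.98%, and 401 in saline, 5.80%). Variable genes (2000, without the adrenergic receptors), 30 principal components and 15 neighbours were used for Leiden clustering (igraph 0.11.9) at resolution 1, and at 0.5 within neurons. A name needed a mean marker level of 0.4 of the highest cluster and, for subclasses, a lead of 0.15; both cut-offs were chosen once marker levels of the clusters had been seen. Such rebuilt names may differ from the study's.

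UMIs were summed per group and library and scaled to CPM. Levels have exact Poisson 95% intervals, shares Clopper-Pearson intervals, and ratios exact conditional binomial intervals. Groups needed 50 nuclei per library and genes 50 UMIs. The intervals and the size rule were run on simulated Poisson counts, the spread that the intervals assume. Spread between nuclei or animals was not simulated. The members and gene lists were chosen with earlier results of these data known. Pathway genes were named where called, otherwise the 2 farthest from 0 per list (apart from genes not reported here), and 3 genes alike in pattern per receptor. Alternatives were other filters (200 or 1000 genes, 1% mitochondrial UMIs), no doublet removal, receptors among the variable genes, library centring, resolution 2, TMM scaling with edgeR 4.0.16, other weightings, matched or thinned nuclei, and looser rules. Results by name for a few genes of the lists are not reported here.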

Additional observations from a re-analysis of the deposited data

Results flagged for a closer look

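A signal lay outside the compared groups. An unnamed cluster of 193 METH and 242 saline nuclei, with Ctss and Ikzf1 among its 10 leading genes and excitatory neurons as its closest class (marker level 0.545, microglia 0.358), had Adra1a at 130 CPM in METH (120 to 140) and 104 CPM in saline (92.6 to 115). Its nuclei were deep, with medians of 16682 and 9298 UMIs, and 1 METH nucleus of 253148 UMIs held 74 of the 624 Adra1a UMIs. Adra1b there was at 41.4 and 37.0 CPM and Adra1d at 23.1 and 23.3.

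Adra1a ratios of METH over saline had intervals without 0 in opposite directions in different neuron types. The log2 ratio was 0.24 in L6 CT neurons, and -0.41 in L5 ET, -0.28 in L5/6 IT, -0.60 in L5/6 NP and -0.22 in Pvalb neurons. The L5/6 IT value joined -0.87 in the Il1rapl2-led cluster and 0.11 in the cluster led by Eya1 and Tll2. It lay nearer to equality under some alternatives. The share of all genes with such intervals is not given here. Each ratio rests on 1 library per group, and the difference between types was not tested.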

How the results depend on the processing

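Of 440 values of 36 receptor ratios under the alternatives, 415 lay within the interval of the reported value, and 17 values outside it came from thinning to 1000 UMIs. Thinning lowers counts, but Adra1b was still seen in 115 METH and 192 saline excitatory nuclei. At that depth Adra1a was seen in 38.8% of METH (30.1 to 48.1) and 17.7% of saline Sncg nuclei (10.0 to 27.9). Thinned to 3000 UMIs, these shares were 60.9% and 61.8%. The receptor ratios of neuron classes that left their interval were Adra1a in excitatory neurons with subclasses weighted alike (-0.11), Adra1b in excitatory neurons thinned (0.052), Adra2a in excitatory neurons thinned (-2.30), and Adra1b in inhibitory neurons with nuclei matched on UMIs (0.40) or thinned (0.23). The count of receptor and group pairs called went from 0 to 2 with the looser rule and to 1 with a minimum of 20 UMIs (of 37 pairs). Under the looser rule, called pathway genes were 1 in inhibitory neurons and, in place of 1, 4 in astrocytes. TMM scaling moved the median of all genes by over 0.1 only in oligodendrocytes, from -0.14 to 0.04. At resolution 2 the named Vip group kept only its Chat-led cluster, with Adra1b at 222 and 217 CPM, and without its 2 clusters of higher level. Of these, the Wwtr1-led cluster took the Pvalb name, so the Vip over Pvalb folds of Adra1b hold for the main clustering only. Weighting the clusters of a subclass alike, an alternative chosen after seeing the data, gave Adra1a in L5/6 IT neurons -0.14. No paired analysis was possible with 1 library per group. Depth limits Adra2a, Adra2c and Adrb1, which reached 50 UMIs in no subclass.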

Other observations

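A cluster with inhibitory neurons as its closest class at resolution 1 (marker level 0.50) was left without a name, because 197 of its nuclei came from the METH library and 1 from the saline library. Its METH nuclei had Adra1a at 254 CPM (225 to 286), Adra1b at 32.5 CPM (22.6 to 45.2) and Adra1d at 17.6 CPM (10.6 to 27.5). At resolution 2 they divided into unlike parts. The 140 nuclei of a cluster led by Trdn and Cpa6, with Pbx3 among its leading genes and inhibitory neurons as its closest class, had Adra1a at 338 CPM (291 to 390), Adra1b at 10.9 (4.00 to 23.7) and Adra1d at 32.7 (19.4 to 51.7). The other 57, in a cluster led by Ndst4 and Tfap2d with excitatory neurons as its closest class, had Adra1a at 167 CPM (134 to 206), Adra1b at 55.1 (36.9 to 79.1) and 1 UMI of Adra1d. No comparison between the libraries was made.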
